A study of Rattus norvegicus with 9 samples.

Results

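Acetylcholine is made in cholinergic neurons by choline acetyltransferase (Chat), packed into synaptic vesicles by the vesicular acetylcholine transporter (Slc18a3) and, once released, split by acetylcholinesterase (Ache), after which the high-affinity choline transporter (Slc5a7) carries the choline back into the nerve ending. Nicotinic acetylcholine receptors are ion channels of 5 subunits. Chrna3 and Chrnb4 code for the subunits of the ganglionic type, Chrna4 and Chrnb2 for those of the main brain type, and Chrna7 for a subunit that forms channels on its own. In the spinal cord the somatic motor neurons of the ventral horn are the largest group of cholinergic cells, beside visceral motor neurons and a few interneurons. These 9 genes are described here in ventral spinal cord tissue from rat embryos. They were found as all probe sets (the sets of short probes that each report 1 transcript) whose platform annotation gave exactly 1 gene symbol equal to a listed name. The rule gave 8 probe sets for 8 genes, 1 per gene, out of 31042 probe sets that are not controls. The annotation listed 0 probe sets under Ache as the only symbol, so its values are not given here.

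The samples were 9 pools, each with total RNA of 5 rat embryos at embryonic day 14, hybridised to 1 array each. The labels give 4 pools of embryos positive for a mutant human SOD1 transgene (hSOD1, G93R, with the name Roth), 4 pools positive for a wild-type human SOD1 transgene (hSOD1, with the name Chan), and 1 pool titled SDneg, the negative control. SOD1 is an enzyme that removes superoxide, and inherited changes in it lead to amyotrophic lateral sclerosis, in which motor neurons die. The description of the negative control also speaks of positive embryos, against its title; it was used as the title has it. The labels do not name the promoter that drives the transgenes, and mutation, rat line and insertion site cannot be told apart. The titles of replicates 2, 3 and 4 of each transgenic group hold the tag le2, without explanation. The unit of replication is the pool, so every spread below is a spread between pools.

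Values are the authors' intensities on a linear scale, given as mean ± SD; intensities of different probe sets are not set against each other, since probes differ in how strongly they bind. Array medians lay between 31.0 and 33.9. Of 8 motor neuron marker genes with a probe set, 7 were above the filter on low values (a mean intensity of about 17.3), and their sum was 5778 to 7945 in mutant pools, 5940 to 7643 in wild-type pools and 6142 in the control pool. Most of that sum came from Prph and Nefl, with means of 2503 and 2561 in mutant and 2316 and 2835 in wild-type pools. The sum therefore mainly follows these genes and does not measure how many motor neurons a pool held. All 6 markers of postmitotic neurons were above the filter. Markers of microglia and of blood were above it at 0 of 7 and 0 of 5. Ventral identity genes were above it at 3 of 6, namely Nkx2-2, Nkx6-1 and Nkx6-2, while Olig2, Shh and Foxa2 lay below it. Ventral interneuron markers were above it at 4 of 5, with a sum of 372 to 516 in mutant pools, 457 to 601 in wild-type pools and 421 in the control pool. Dorsal identity genes were above it at 2 of 3, namely Msx1 and Barhl1, and neural progenitor markers at 7 of 8. Sensory ganglion markers were above it at 5 of 8, and most of their sum came from Tubb3, which all neurons express and which is also among the postmitotic markers. The other 7 sensory markers, 4 of them above the filter, summed to 363 to 439 in mutant pools, 308 to 405 in wild-type pools and 370 in the control pool. Skeletal muscle markers were above it at 4 of 10, with a sum of 232 to 281, 192 to 294 and 222 in the same order; the part of these cells in the results was not tested. Cholinergic neurons are only a part of this tissue, and in bulk RNA fewer cholinergic cells and less RNA per cell cannot be told apart. The ratio of the 3' to the 5' beta-actin control probe set, which rises as RNA degrades, averaged 7.31 ± 0.465 over mutant and 11.3 ± 5.29 over wild-type pools, against 6.66 in the control pool (two-sided exact permutation p = 0.0286, the lowest possible with 70 arrangements), and wild-type replicate 2 had the highest ratio, 19.2.

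Of the 8 probe sets, 5 passed the filter and were tested: those of Chat, Slc18a3, Slc5a7, Chrna3 and Chrna4. Those of Chrna7, Chrnb2 and Chrnb4 did not. Between mutant and wild-type hSOD1, 0 of the 5 passed the threshold of 0.05 in limma after adjustment over 18625 probe sets, where 3 probe sets passed in all (0.0161%), and 0 of the 5 had an unadjusted p under 0.05 (4.93% of all tested). None of the 5 had groups without overlap (2.95% of all tested, 1.71% with mutant pools higher). The fitted difference was above 0 for all 5, with a median of 0.23 on the log2 scale, where 53.7% of all tested probe sets were above 0 and their median was 0.01. In this fit the genes of synthesis and transport stood further from 0 than Chrna3 and Chrna4 did, but no test separated them. With the actin ratio as covariate that order did not hold, at 0.02 for Chat and −0.11 for Chrna3. That ratio did not overlap between the groups, so RNA quality and group cannot be told apart by the covariate fit. Chrna5, a nicotinic subunit outside the members, differed by 0.34 in the fit without a covariate.

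The 3 genes that make up the presynaptic cholinergic machinery are described first. The Slc18a3 gene lies wholly inside the Chat gene, in the same direction, an arrangement known as the cholinergic gene locus. Their annotated starts lie 602 bases apart in the RefSeq annotation of the rat assembly GRCr8, so the locus is read here by 2 probe sets and has 2 annotated starts. The 250 bases before the annotated start are shown for these 2 genes and for Slc5a7, whose product works in the same nerve endings, because the levels of these 3 genes are compared pool by pool below. The windows are chr16:7723417-7723666 for Chat, chr16:7722815-7723064 for Slc18a3 and chr9:7953510-7953759 for Slc5a7, all on the minus strand of GRCr8 and written 5′ to 3′. Capitals mark matches on either strand to 3 motifs: the E-box CANNTG, the homeodomain core TAAT and the GC box GGGCGG.
Chat: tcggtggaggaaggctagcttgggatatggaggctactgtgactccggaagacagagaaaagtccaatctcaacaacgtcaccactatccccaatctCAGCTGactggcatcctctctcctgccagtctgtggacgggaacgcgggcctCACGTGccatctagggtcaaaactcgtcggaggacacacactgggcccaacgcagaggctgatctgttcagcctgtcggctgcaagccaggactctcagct
Slc18a3: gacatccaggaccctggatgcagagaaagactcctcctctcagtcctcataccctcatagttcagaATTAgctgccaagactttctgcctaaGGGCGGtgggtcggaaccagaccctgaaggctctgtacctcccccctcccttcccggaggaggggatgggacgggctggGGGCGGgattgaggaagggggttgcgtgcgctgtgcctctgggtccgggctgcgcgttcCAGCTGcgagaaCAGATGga
Slc5a7: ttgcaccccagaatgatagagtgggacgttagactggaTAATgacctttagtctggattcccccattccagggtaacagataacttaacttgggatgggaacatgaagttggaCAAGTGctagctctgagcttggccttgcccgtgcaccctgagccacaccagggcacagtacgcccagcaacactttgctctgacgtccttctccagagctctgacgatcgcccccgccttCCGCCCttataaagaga
The Chat window held 2 E-boxes, 0 homeodomain cores and 0 GC boxes. The Slc18a3 window held 2 E-boxes, 1 homeodomain core and 2 GC boxes, and the Slc5a7 window held 1 of each. No matches overlapped in these windows. Over the 27457 genes of the promoter table, 65.2% of windows of the same length held an E-box, 56.3% a homeodomain core and 32.4% a GC box, so each of these matches is common. A match in a window describes its letters and shows no binding.

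Chat (1373614_at), the enzyme that makes acetylcholine, had intensities of 175, 115, 180 and 149 in mutant replicates 1 to 4, of 123, 104, 132 and 161 in wild-type replicates 1 to 4, and of 163 in the negative control. The highest 2 pools were mutant replicates 3 and 1, the lowest was wild-type replicate 2, and the groups overlapped: mutant replicate 2 lay below all wild-type pools but replicate 2. The means were 155 ± 29.7 in mutant and 130 ± 23.7 in wild-type pools (n = 4 each). The log2 difference was 0.23 (SE 0.157, 95% interval −0.10 to 0.57, limma adjusted p = 0.929), which is a 1.18-fold difference with an interval from 0.930 to 1.49.

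Slc18a3 (1368615_a_at), the transporter that fills synaptic vesicles with acetylcholine, had intensities of 525, 365, 304 and 386 in mutant replicates 1 to 4, of 268, 223, 351 and 471 in wild-type replicates 1 to 4, and of 384 in the negative control. Mutant replicate 1 was the highest pool and wild-type replicate 2 again the lowest, while wild-type replicate 4 stood above 3 of the mutant pools. The means were 395 ± 93.3 and 328 ± 109. In limma the log2 difference was 0.29 with an SE of 0.205 and a 95% interval of −0.15 to 0.73 (adjusted p = 0.929). Within the wild-type group alone the highest pool had 2.11 times the intensity of the lowest, against a fitted 1.22-fold difference between the groups.

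Slc5a7 (1387543_at), the transporter that returns choline to the nerve ending and limits how fast acetylcholine is made, had intensities of 469, 307, 424 and 288 in mutant replicates 1 to 4, of 222, 301, 288 and 356 in wild-type replicates 1 to 4, and of 356 in the negative control. Mutant replicates 1 and 3 stood above every wild-type pool, and mutant replicates 2 and 4 lay among them. The means were 372 ± 88.3 and 292 ± 55.1. The log2 difference of 0.33 was the largest of the 5 tested probe sets (SE 0.167, 95% interval −0.03 to 0.69, unadjusted p = 0.0679 and adjusted p = 0.929 in limma).

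For each of these 3 genes the mutant pool had the higher intensity in 12 of the 16 pairs of a mutant with a wild-type pool. The spread between pools of 1 group was wide beside other probe sets. Among the 6872 tested probe sets with a mean intensity from 100 to 500, the SD of the log2 values of Slc18a3 ranked at the 94.7th percentile in mutant and the 97.1th in wild-type pools. That of Chat ranked at the 91.6th and 76.4th, and that of Slc5a7 at the 95.8th and 82.0th. These groups also differed in the actin ratio. With its log2 value as a covariate the log2 differences were 0.02 for Chat, −0.05 for Slc18a3 and 0.32 for Slc5a7. The ratio was at most 7.98 in mutant and at least 8.19 in wild-type pools, without overlap. RNA quality and group therefore cannot be told apart by that fit. Without wild-type replicate 2, the pool with the highest ratio, the log2 differences were 0.14, 0.13 and 0.35. Leaving out other pools made them larger: Chat was 0.36 without mutant replicate 2 (unadjusted p = 0.0310 in limma), Slc18a3 0.48 without wild-type replicate 4 (0.0204) and Slc5a7 0.44 without mutant replicate 4 (0.0228). Each of these is the largest of the 8 fits without 1 array for its gene, so these p-values add no support. With all 8 arrays the unadjusted p was 0.160, 0.183 and 0.0679 in limma. Over all 8 arrays left out in turn the log2 differences ran from 0.14 to 0.36, 0.13 to 0.48 and 0.21 to 0.44. Among the 6 pools with the le2 tag alone, a comparison chosen after seeing the data, they were 0.15, 0.07 and 0.09. None of the 3 passed after adjustment in any of these fits.

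**Figure D1:**
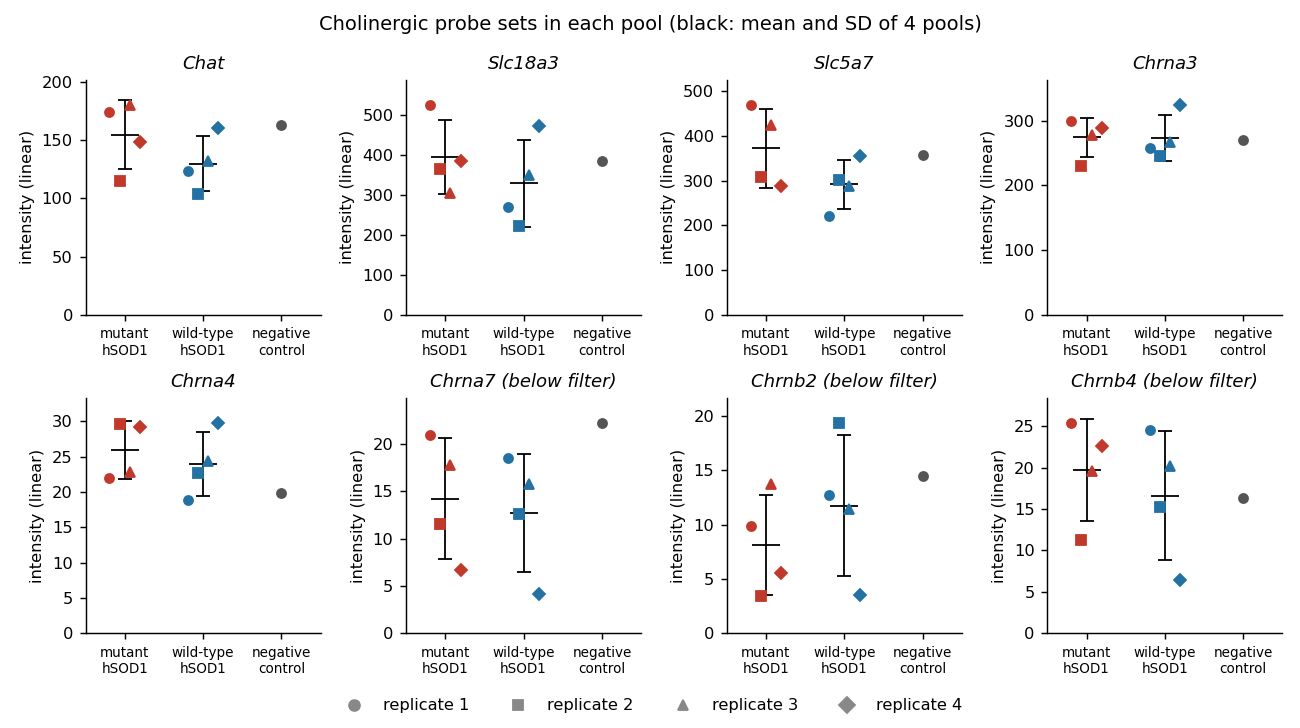
Intensity on the authors' linear scale (vertical axis, from 0) of the 8 cholinergic probe sets in each pool, with mutant hSOD1, wild-type hSOD1 and the negative control along the horizontal axis; symbols give the replicate and black bars the mean and SD of 4 pools. Mutant and wild-type pools overlap in all 8 panels, as for Chat with 115 to 180 in mutant and 104 to 161 in wild-type pools.

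The receptor subunits came next. Chrna3 (1369001_at), the ligand-binding subunit of the ganglionic receptor, had intensities of 300, 231, 278 and 288 in mutant replicates 1 to 4, of 257, 245, 266 and 324 in wild-type replicates 1 to 4, and of 270 in the negative control. The 9 pools formed 1 narrow band in which the lowest was mutant replicate 2 and the highest wild-type replicate 4. The means were 274 ± 30.4 and 273 ± 35.1, a log2 difference of 0.01 whose sign changed with median centring (95% interval −0.24 to 0.25, limma adjusted p = 0.996). A difference of more than 1.19-fold in either direction lay outside the interval, which ran from 0.845 to 1.19. Its spread between pools, at the 62.8th percentile in mutant and the 50.9th in wild-type pools among probe sets of the same range of intensity, was near the middle.

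Chrna4 (1369252_a_at), the ligand-binding subunit of the main brain receptor, had intensities of 22.02, 29.7, 22.9 and 29.3 in mutant replicates 1 to 4, of 18.8, 22.7, 24.5 and 29.7 in wild-type replicates 1 to 4, and of 19.9 in the negative control. These values lay little above the filter, and the groups overlapped over nearly their whole range. The means were 26.0 ± 4.08 and 23.9 ± 4.52, a log2 difference of 0.09 (95% interval −0.26 to 0.45, limma adjusted p = 0.966). Since the pseudocount of 8.25 is large beside such values, the log2 scale understates their differences.

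The other 3 subunits lay below the filter, where the arrays give little information. Chrna7 (1387419_at), whose subunit forms channels on its own, ran from 6.71 to 20.9 in mutant and from 4.11 to 18.5 in wild-type pools, with 22.2 in the negative control. Chrnb2 (1369432_at), the partner of Chrna4, ran from 3.40 to 13.7 and from 3.50 to 19.3, with 14.5 in the negative control. Chrnb4 (1369405_a_at), the partner of Chrna3, ran from 11.2 to 25.3 and from 6.40 to 24.6, with 16.4 in the negative control, and its mean over all pools was 17.9; the filter acts on the mean of the log2 values, and there Chrnb4 had 4.668 against a limit of 4.674. The highest pool of each group had 2.26 to 5.51 times the intensity of the lowest for these 3 genes, so the groups overlapped widely. When no filter was applied, the limma adjusted p between mutant and wild-type pools was 0.975 for Chrna7, 0.944 for Chrnb2 and 0.957 for Chrnb4. Low values here do not show that the genes are silent. Wild-type replicate 4 had the lowest Chrna7 and Chrnb4 and the second-lowest Chrnb2 of the 9 pools, but the highest Chrna3 and Chrna4, while its lower quartile over all probe sets, 7.88, was within the range of the other arrays (7.80 to 8.94).

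Chrna5, Chrna3 and Chrnb4 are neighbours in the RefSeq annotation, and the Chrna5 subunit joins receptors that contain Chrna3. Chrna5 had intensities of 97.3, 174, 222 and 43.7 in mutant replicates 1 to 4, of 130, 115, 33.9 and 118 in wild-type replicates 1 to 4, and of 92.8 in the negative control. Its lowest pools were wild-type replicate 3 and mutant replicate 4 and its highest were mutant replicates 3 and 2, so the variation ran inside the groups. The highest mutant pool had 5.08 times the intensity of the lowest, and the highest wild-type pool 3.83 times. Its SD of log2 values ranked at the 99.95th percentile of all tested probe sets in mutant and at the 99.7th in wild-type pools, whereas Chrna3 ranked at the 53.9th and 44.1th. The log2 difference of 0.34 ranged over −0.60 to 1.27 in its 95% interval (limma adjusted p = 0.952) and became −0.07 without wild-type replicate 3.

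The comparison with the negative control addresses what goes with a human SOD1 transgene, with 1 control pool whose spread is taken from the transgenic pools. For both transgenes together 0 of 18625 probe sets passed in limma (0%; 581, or 3.12%, had an unadjusted p under 0.05), and 0 of the 5 tested members did at either threshold. The difference was above 0 for 2 of the 5 (46.5% of all tested). The log2 differences were −0.21 for Chat (95% interval −0.71 to 0.30), −0.13 for Slc18a3 (−0.80 to 0.53), −0.13 for Slc5a7 (−0.68 to 0.41), 0.01 for Chrna3 (−0.36 to 0.39) and 0.23 for Chrna4 (−0.31 to 0.76). No member above the filter had all 8 transgenic pools on 1 side of the control (19.7% of all tested probe sets did). Below the filter, Chrna7 was lower in all 8 transgenic pools than in the control, at values where the order of pools carries little weight.

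Each transgene was also set against the same control pool, so these 2 comparisons share it. Mutant minus control gave −0.09 for Chat, 0.01 for Slc18a3 and 0.03 for Slc5a7. Wild-type minus control gave −0.32 (95% interval −0.86 to 0.21), −0.28 (−0.98 to 0.42) and −0.30 (−0.87 to 0.27) for the same genes. The control lay above all 4 wild-type pools for Chat and Slc5a7 and above 3 of 4 for Slc18a3, and in the middle of the mutant pools for all 3, with 2 mutant pools above it. All 4 pools lay on 1 side of the control at 38.0% of probe sets for mutant and at 37.8% for wild-type pools, so such an order is common. Of the subunits, Chrna3 differed from the control by 0.02 in mutant and 0.01 in wild-type pools and Chrna4 by 0.27 and 0.18. In limma 0 of 18625 probe sets passed in either comparison, with 427 and 797 at an unadjusted p under 0.05 (2.29% and 4.28%). The difference was above 0 for 4 of the 5 members in mutant pools (47.8% of all tested) and for 2 of the 5 in wild-type pools (45.7%). The lowest adjusted p of a tested member was 0.980, and 0 members had an unadjusted p under 0.05.

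**Figure D2:**
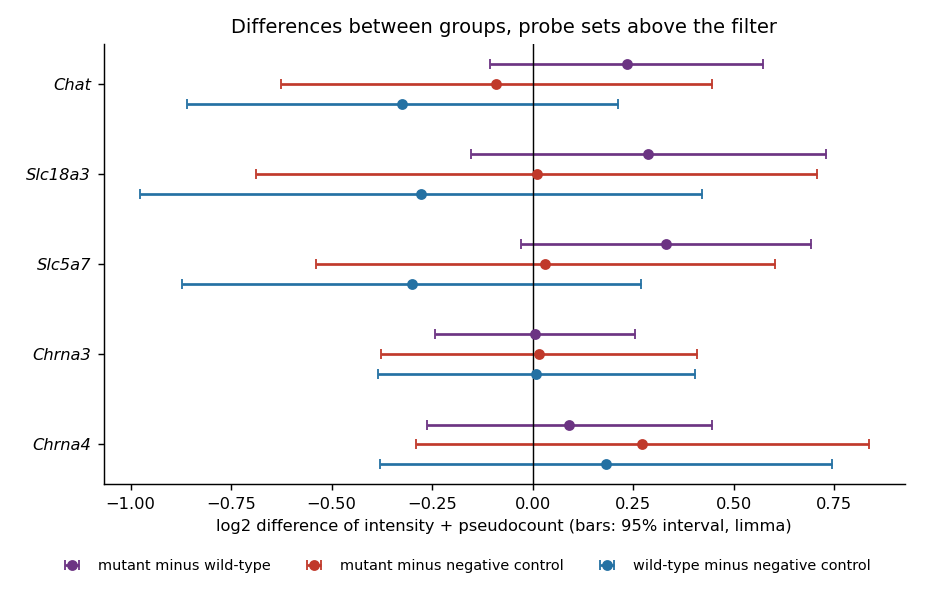
Log2 differences from limma (horizontal axis, on intensity plus the pseudocount) with 95% intervals for the 5 cholinergic probe sets above the filter (vertical axis), for mutant minus wild-type, mutant minus negative control and wild-type minus negative control. Every interval includes 0, and the interval of Slc5a7 between mutant and wild-type, −0.03 to 0.69, comes nearest to leaving it out.

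Whether the members rose and fell together across pools was examined over the 9 pools for the 5 tested probe sets, which gave 10 pairs. None passed after Benjamini-Hochberg adjustment over the 10 pairs. Chat and Chrna3 had Pearson's r = 0.78 (exact permutation p = 0.0139, adjusted 0.121) and Spearman's rho = 0.77 (exact permutation p = 0.0214, adjusted 0.123). Chat and Slc5a7 had r = 0.73 (exact permutation p = 0.0243, adjusted 0.121) and rho = 0.72 (exact permutation p = 0.0369, adjusted 0.123). Chat and Slc18a3, the 2 genes of 1 locus, had r = 0.66 (exact permutation p = 0.0542, adjusted 0.135) and rho = 0.53 (exact permutation p = 0.148, adjusted 0.369), with mutant replicate 3 high for Chat and low for Slc18a3. Without mutant replicate 2 and wild-type replicate 2, the 2 pools farthest from the median of Chat, r was 0.56 for Chrna3, 0.95 for Slc5a7 and 0.52 for Slc18a3. Within the 6 pools with the le2 tag it was 0.77, 0.71 and 0.51. Slc18a3 with Chrna3 gave r = 0.67 and rho = 0.75 (exact permutation p = 0.0454 and 0.0255, adjusted 0.135 and 0.123) and 0.55 without mutant replicate 1 and wild-type replicate 2. Slc18a3 and Slc5a7 had r = 0.56 (exact permutation p = 0.114, adjusted 0.227), which was 0.39 without mutant replicate 1 and wild-type replicate 2 and 0.049 in the le2 pools. Slc5a7 with Chrna3 gave r = 0.49, and the 4 pairs of Chrna4 had r from −0.06 with Chat to 0.37 with Slc18a3. Wild-type replicate 2, with the highest actin ratio, was the lowest pool for Chat and Slc18a3 and the second-lowest for Chrna3; the part of RNA quality in these correlations was not tested.

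**Figure D3:**
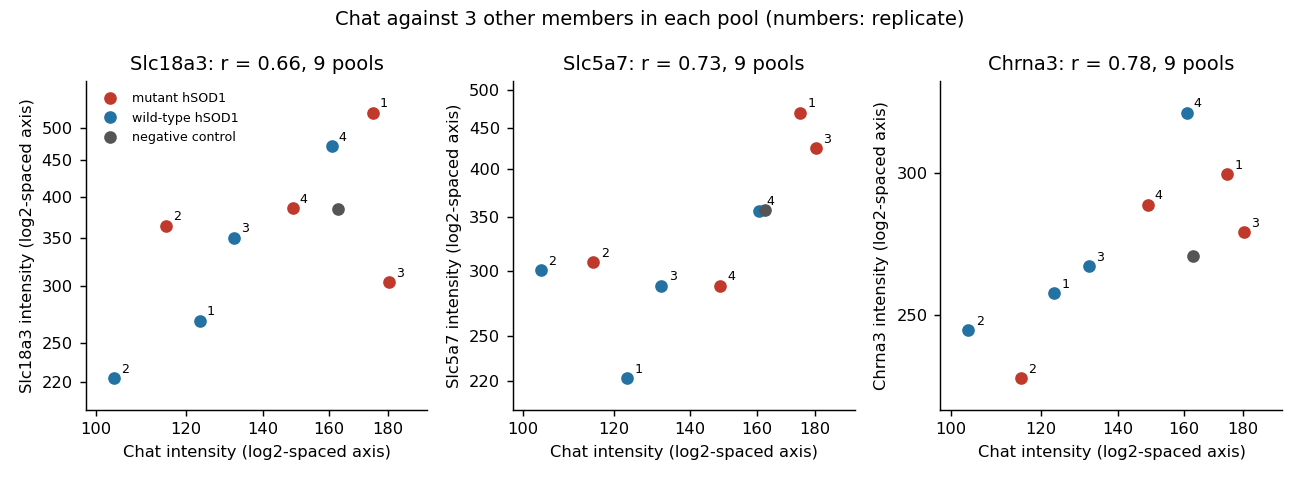
Intensity of Slc18a3, Slc5a7 and Chrna3 (vertical axes, log2-spaced) against that of Chat (horizontal axes, log2-spaced) in each pool; numbers give the replicate and colours the group. Wild-type replicate 2 stands at the lower left of the Slc18a3 and Chrna3 panels, and r over 9 pools is 0.66, 0.73 and 0.78.

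The genes whose profile over the 9 pools was most like that of Chat were Tbc1d1, Nubp1, Jak1, Copb2 and Tcaf1, with Pearson's r of 0.96, 0.96, 0.95, 0.95 and 0.95; r lay between 0.86 and 0.95 without the 2 pools farthest from the median of Chat. Of 13291 probe sets with 1 symbol, 30 had r over 0.9 with Chat and 5 had it with Chrna3. The 5 most like Chrna3 were Acss2, Aifm1, Cpped1, Dcxr and Man2c1, with r from 0.92 to 0.97. They were picked for their likeness among 13291 probe sets over 9 pools, so these values describe the pools and are not tested. Acss2, at the top for Chrna3, codes for an enzyme that makes acetyl-CoA, the substrate that Chat joins to choline.

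Other genes of cholinergic signalling were counted by list, 1 probe set per gene. Over 6 lists 55 genes had a probe set and 27 were above the filter. Between mutant and wild-type hSOD1, 0 of the 27 passed in limma and 2 had an unadjusted p under 0.05 (4.93% of all tested probe sets). The fitted difference was above 0 for 18 (53.7% of all tested), with a median of 0.04 on the log2 scale against 0.01 over all tested. The same shares stand beside the counts of each list below. Of 11 further nicotinic subunits only Chrna5 was above the filter, so the muscle subunits Chrna1, Chrnb1, Chrnd, Chrne and Chrng gave no test. Of 5 muscarinic receptors, which signal through G proteins, only Chrm3 was above it, at 31.8 ± 5.30 in mutant pools, 24.1 ± 5.31 in wild-type pools and 31.3 in the control pool (log2 difference 0.31, limma adjusted p = 0.929). Bche and Colq, a second cholinesterase and the collagen tail that anchors acetylcholinesterase at the neuromuscular junction, both lay below the filter.

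Genes that supply choline and acetyl-CoA were above the filter at 10 of 15, and 8 of the 10 were higher in mutant pools, all by less than 0.15 on the log2 scale with a median of 0.04. The nearest to the threshold were Pdha1, a subunit of pyruvate dehydrogenase, at 0.15, Chka, a choline kinase, at 0.10, Pld2 at 0.09 and Pcyt1a at 0.04 (limma adjusted p of 0.931 to 0.971). On their second tested probe sets, which do not enter these counts, Pdha1 differed by 0.39 and Pld2 by 0.28. Genes of receptor assembly and modulation were above it at 8 of 12, with 6 of the 8 higher and a median of 0.06. Ric3, a chaperone of nicotinic receptors, had 51.1 ± 3.47 in mutant and 64.8 ± 16.7 in wild-type pools, where wild-type replicate 4 had 39.99, below every mutant pool, and the other wild-type pools lay above all of them (log2 difference −0.27, limma adjusted p = 0.929). With all 8 arrays its unadjusted p was 0.147 in limma. Of the fits without 1 array, that without wild-type replicate 4 lay furthest from 0, at −0.46 (unadjusted p = 0.00420 and adjusted p = 0.459 in limma). Leaving out that low pool sets the groups apart by itself, so this p adds no support. Agrn, whose product agrin is released by motor nerve endings and gathers receptors on muscle, was 2319 ± 176 against 2112 ± 278 (log2 difference 0.14, limma adjusted p = 0.929), and differed by 0.23 without wild-type replicate 4. Vsnl1 and Ubqln1 differed by −0.13 and 0.07, with −0.06 for Vsnl1 without wild-type replicate 3. Their second tested probe sets went the other way, at 0.22 for Vsnl1 and −0.04 for Ubqln1.

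Among transcription factors of cholinergic neurons 7 of 10 were above the filter, with 2 higher in mutant pools and a median of −0.04. Both of the unadjusted p-values under 0.05 came from this list. Isl1, which with Lhx3 turns on the cholinergic genes in motor neurons, was 468 ± 104 against 337 ± 36.9 and 393 in the negative control, a log2 difference of 0.45 (95% interval 0.14 to 0.75, unadjusted p = 0.00723 and adjusted p = 0.929 in limma). Mutant replicate 2, at 354, lay below wild-type replicate 4, at 386. The motor neuron markers did not share this direction: of 7 tested, 4 were higher and 3 lower in mutant pools, with a median of 0.04. Isl2, on the same list of factors, differed by −0.03 and −0.06 on its 2 probe sets. Phox2a, a factor of visceral motor neurons, was 56.2 ± 18.4 against 37.2 ± 7.12 and 53.7 in the negative control (log2 difference 0.47, unadjusted p = 0.0340 and adjusted p = 0.929 in limma). Of the 2 visceral motor neuron markers with a probe set, Nos1 lay below the filter. Zeb2 was 85.5 ± 8.27 against 114.9 ± 15.3 and 105 in the control pool, without overlap (2.95% of all tested), and its other 3 tested probe sets overlapped. Isl1 is also made by sensory neurons, and the sensory ganglion marker Runx1, named after its values were seen, had higher means in mutant pools on both of its probe sets. The brighter had 110.9 ± 15.1 against 70.7 ± 24.2 and 55.95 in the control pool (log2 difference 0.64, unadjusted p = 0.00559 and adjusted p = 0.929 in limma), and the dimmer 24.9 ± 3.44 against 14.4 ± 4.51, without overlap (log2 difference 0.56, limma adjusted p = 0.929). The other tested sensory markers differed by less on the log2 scale: 0.18 for Pou4f1, 0.23 for Scn10a, −0.04 for P2rx3 and 0.08 for Tubb3. None of these had an unadjusted p under 0.05 in limma. The part of sensory cells in the values of Isl1 and of the cholinergic genes was not tested. Lmo4 and Ets1 differed by −0.08 and −0.22, with −0.07 for Ets1 without wild-type replicate 1. The other tested probe sets of Lmo4 gave 0.13, −0.35, 0.16 and 0.10, so the direction differed between its probe sets. Against the negative control, 0 of the 27 genes had an unadjusted p under 0.05 for both transgenes together. Tmem35a, a chaperone needed for receptors of the Chrna7 subunit, was named after its values were seen. It had 1598 ± 132 in mutant and 1540 ± 146 in wild-type pools, and all 8 pools stood above the 1315 of the control, as they did for Ets1, while all 8 lay below it for Ubqln1 and Ldb1 (log2 difference 0.25, 95% interval −0.03 to 0.53, limma adjusted p = 1.00 for Tmem35a). These 4 of 27 genes, each by its brightest probe set, are 14.8%, against 19.7% of all tested probe sets. The second tested probe set of Ubqln1 went the other way, with all 8 transgenic pools above the control (log2 difference 0.22).

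**Figure D4:**
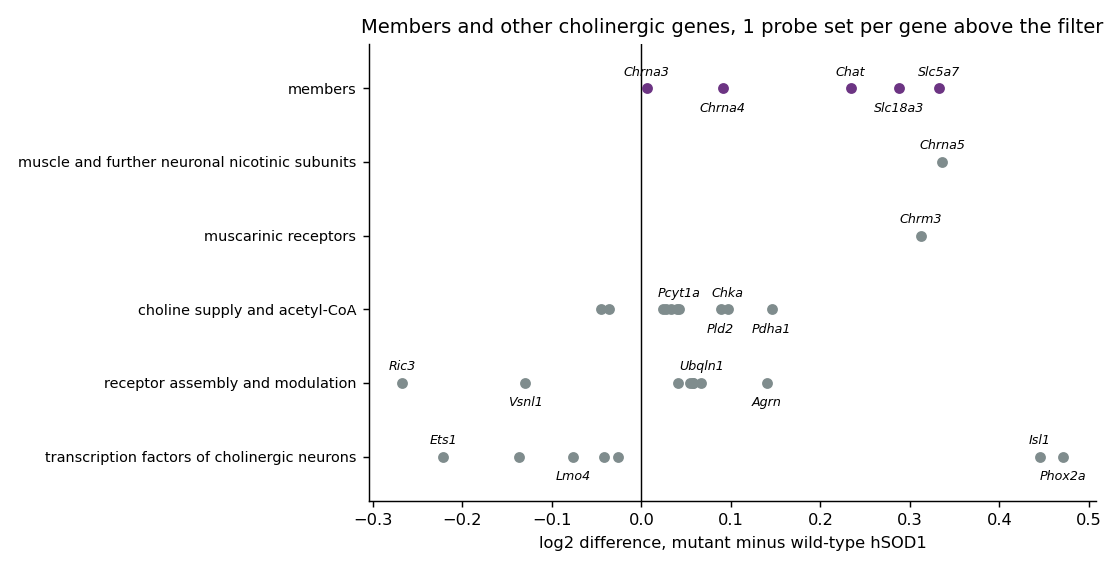
Log2 difference between mutant and wild-type hSOD1 pools (horizontal axis) for the 5 tested cholinergic probe sets (top row) and for 27 other genes of cholinergic signalling in 5 lists, 1 point per gene. Names mark the genes with the smallest p in each list; most points lie within 0.15 of 0, and none passed the threshold.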

How the data were processed

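RNA of 9 pools was measured on Affymetrix rat arrays. The authors deposited linear intensities, 1 for each probe set in each pool; the sources used here do not name the software. The mean after trimming 2% at each end was about 150.05 in every array, which shows that the authors scaled the arrays, and no further normalization was added. All 9 columns were used. Of 31099 probe sets, 57 controls served only for the 3'/5' ratios. The annotation listed 20826 probe sets with 1 symbol, 436 with several and 9780 with none. Arrays have no read depth; their number limits the precision.

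Intensities were taken to log2 after adding 8.25 (their 25th percentile). Those probe sets with a mean log2 value above the 40th percentile (18625 in all) were tested with limma 3.58.1 in R 4.3.3 (lmFit, eBayes with intensity trend), Benjamini-Hochberg adjustment over all of them and a threshold of 0.05, after a check on simulated data. The fit of mutant against wild-type hSOD1 held 8 arrays, and those with the negative control held 9. Permutation tests used Python 3.11.15. Promoters came from RefSeq (GRCr8); all 9 symbols matched, and motifs were searched on both strands.

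Every member probe set was named, with up to 4 genes per list by the smallest p between mutant and wild-type, and the 5 genes most like Chat and like Chrna3. The members and lists were chosen with earlier results of these data known. The alternatives were other normalizations, pseudocounts, filters, variance models, covariates (le2 tag, actin ratio), samples in the fit, a block for the replicate number, and fits without 1 array at a time.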

Additional observations from a re-analysis of the deposited data

Results flagged for a closer look

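Among 20 sets of 4 pools checked (the 8 cholinergic probe sets and both 3'/5' ratios in each transgenic group), 1 had a pool far from the other 3. The beta-actin 3'/5' ratio of wild-type replicate 2 was 19.2, while the other wild-type pools lay between 8.19 and 9.20, so that the gap took 0.908 of the whole range against a critical value of 0.829. Chance alone sets apart about 1 in 20 such sets. The same pool had the lowest Chat and Slc18a3 of the 9 pools. Its part in those levels was not tested.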

How the results depend on the processing

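Arrays number 4, 4 and 1 per group, which limits the precision, and the 3 probe sets below the filter give no firm level. None of 361 alternative fits of the 20 tested results on the cholinergic genes passed the threshold; 337 kept their direction and 24 did not. For each value below the cause of the change was not tested.

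Between mutant and wild-type hSOD1, 3 probe sets passed in limma, none of them a cholinergic gene. The count was 5 with median centring, 1 without a filter, 1 with a filter at the 60th percentile, 1 with the le2 tag as covariate, 0 without an intensity trend (993 at an unadjusted p under 0.05), 0 with the actin ratio as covariate (680) and 0 in the arrays with the le2 tag alone, chosen after seeing the data (670). It ran from 1 to 3 when 1 array was left out. Same-numbered pools share a number and the presence or absence of the le2 tag, and the labels do not say that they were paired. The correlations of their deviations were 0.12, 0.09, −0.07 and 0.20, and mutant replicate 2 correlated best with wild-type replicate 3 (0.21). With the replicate number as a block, 3 probe sets passed, and 1211 had an unadjusted p under 0.05 in limma against 918 without the block. Against the negative control, where 0 passed, the count for both transgenes was 1 with median centring and with 0.25 times the pseudocount, and 0 to 1 when 1 array was left out. For mutant pools it was 1 with 0.25 times the pseudocount. For wild-type pools it was 1 with median centring and with 0.25 times the pseudocount, and 0 to 1 when 1 array was left out.

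With the actin ratio as covariate the log2 difference of Slc18a3 was −0.051 between mutant and wild-type, 0.12 for both transgenes against the control and 0.14 for wild-type against it; that of Chrna3 between mutant and wild-type was −0.11 and that of Pdha1 −0.049. Chrna3 gave −0.014 with median centring and −0.063 in the le2 arrays alone. Slc18a3 gave −0.0019 for mutant against control with quantile normalization, and Chrna4 −0.021 for wild-type against control with the le2 tag as covariate. When 1 array was left out, mutant against wild-type ran from −0.042 to 0.089 for Chrna3, −0.067 to 0.75 for Chrna5 and −0.022 to 0.092 for Pcyt1a. Mutant against control ran from −0.17 to 0.037 for Chat, −0.13 to 0.12 for Slc18a3, −0.087 to 0.14 for Slc5a7 and −0.028 to 0.094 for Chrna3. Chrna3 ran from −0.029 to 0.052 for both transgenes and −0.073 to 0.057 for wild-type against control.

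Of the correlations between cholinergic genes, 0 passed over 9 pools, 1 without the 2 farthest pools (Chat and Slc5a7, 0.95, exact permutation, adjusted p = 0.0119) and 1 in the le2 pools (Slc18a3 and Chrna4, 0.82, exact permutation, adjusted p = 0.0417). The 2 farthest pools were left out for their Chat values, and the permutation does not allow for that choice. Over 9 pools Chat and Slc5a7 had r = 0.73 (exact permutation, adjusted p = 0.121). Without the 2 farthest pools and in the le2 pools, Chat and Chrna4 gave 0.15 and 0.084, and Slc5a7 and Chrna4 −0.35 and −0.25. The difference of the actin ratio ran from −5.00 to −1.33 when 1 array was left out, and that of the GAPDH ratio from −0.431 to −0.105.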

Other observations

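The neighbouring genes Chrna3 and Chrna5 differed in how much they varied between pools of 1 group: Chrna3 stood near the middle of all tested probe sets, with an SD of log2 values of 0.162 in mutant and 0.172 in wild-type pools, and Chrna5 near the top, with 0.954 and 0.810. Each has 1 probe set here, so a property of the probe set and a property of the gene cannot be told apart. This contrast was noticed after the values were seen and was not tested.

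The promoters of Ache, Chrna4, Chrna7 and Chrna3 were the richest in G and C of the 9 members, at 75.6%, 74.4%, 66.0% and 65.2% of the 250 bases before the annotated start, where the median over 33469 windows of the promoter table was 51.2%. Slc5a7 was the lowest, at 53.2%. The Ache window held 4 GC boxes, the most of the 9.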
